A study of Mus musculus with 10 samples.

Results

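The 10 pluripotency genes followed here, Pou5f1, Sox2, Nanog, Lin28a, Utf1, Dppa5a, Tdgf1, L1td1, Sall4 and Dnmt3b, were chosen by name as genes that mark embryonal carcinoma cells, and their molecules were taken from the direct RNA sequencing of P19 cells. They are 10 of the 13647 genes that had at least 1 mRNA read with a tail estimate of PASS quality, and together they gave 8118 such reads. P19 is a mouse embryonal carcinoma cell line, derived from a teratocarcinoma and able to differentiate, and the genotype was wild type in every group. Cells received either a pool of scrambled siRNAs (siCtl) or 1 siRNA against Larp1 (siLarp1), carried by a Lipofectamine reagent, and were collected after 24 h (3 libraries of each) or, following a second transfection at 24 h, after 48 h (2 libraries of each). All cells compared were therefore transfected, and there was no untransfected group. Each molecule was read as native RNA on a nanopore, which gives both its transcript and the length of its poly(A) tail. The comparison asks whether lowering LARP1, an RNA-binding protein tied to the protection of poly(A) tails, above all on mRNAs of ribosomal proteins, altered the amount or the tails of mRNAs that maintain pluripotency.

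Pluripotent cells are held in an undifferentiated state by transcription factors that bind and activate one another's genes. Pou5f1 encodes OCT4, which acts with SOX2, and NANOG and SALL4 belong to the same network. Other members sit around this core: UTF1 is a chromatin-bound factor, LIN28A is an RNA-binding protein that blocks maturation of let-7 microRNAs, L1TD1 is an RNA-binding protein derived from a transposon, TDGF1 (Cripto) is the co-receptor for the ligand NODAL, DPPA5A is an RNA-binding protein of pluripotent cells, and DNMT3B is a de novo DNA methyltransferase. A poly(A) tail is added at cleavage of the pre-mRNA, downstream of a hexamer (AATAAA or its common variant ATTAAA), and is then shortened in the cytoplasm, where poly(A)-binding proteins coat it.

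The 3′ ends shown here are those of the annotated transcripts. The last 30 bases are those of the transcript that held most reads of each gene. They are shown for the 4 members on which the results turn and for L1td1. The end of L1td1 holds the variant hexamer, as does that of Dnmt3b, which is not shown. A hexamer is in capitals where these bases hold one. The bases come from GENCODE vM21 (build GRCm38), read 5′ to 3′ on the strand of the gene.
Pou5f1, chr17:35510743-35510772, plus strand: tcttaAATAAAgactgggacacacagtaga
Utf1, chr7:139945083-139945112, plus strand: accaaAATAAAgattgtgttttctacttaa
Nanog, chr6:122714604-122714633, plus strand: aaacaaAATAAAacactaattttaccttta
Tdgf1, chr9:110939603-110939632, minus strand: gcacagtaaaaatgggaactctgaacaaaa
L1td1, chr4:98738451-98738480, plus strand: catATTAAAgcttgaagtttgcatttgtca
All these windows lie in the last exon, at the end of the 3′ UTR. AATAAA stood in the last 40 bases of 64.3% of the 5042 transcripts compared (1 per gene, at least 30 reads, sense strand only), ATTAAA without AATAAA in 14.8%, and neither in the rest. Tdgf1 was the member with neither, which says only that these letters are not in this window. Alignments of 98.2% of Pou5f1 reads, 96.7% of Utf1 reads and 90.5% of Tdgf1 reads stopped within 30 nt of the annotated end. As reads were aligned to annotated transcripts, an end beyond the annotation could not be seen. The median aligned stretch of a Pou5f1 read was 1299 nt of a transcript of 1362 nt, and 27.2% of the Pou5f1 reads reached its first 50 nt.

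The library totals ranged from 112720 to 423398 kept reads, and each siLarp1 library at 24 h was shallower than each siCtl library of that time. Each treatment had its own sequencing pool at 24 h, where treatment and pool therefore cannot be told apart, while a single pool held all 4 libraries of 48 h. Libraries are named by the numbers in the deposited table, 19, 21 and 22 at 24 h and 24 and 25 at 48 h. Which labelled replicate each one is was not stated. The study's methods call them biological replicates, and p-values measure the spread between these libraries. The target itself was lower: Larp1 stood at 81.7 ± 5.04 RPM (reads per 1000000 kept reads; SD, n = 3) in siCtl and 32.4 ± 12.9 (n = 3) in siLarp1 libraries at 24 h, and at 146 ± 32.1 and 21.7 ± 4.51 (n = 2 each) at 48 h. Over both times its log2 change was -1.84 (SE 0.34, adjusted p = 0.0024, limma voom), while the single times gave adjusted p = 0.827 (24 h) and 0.252 (48 h). As 1 read is 1 molecule, RPM was not divided by length.

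The cells carried the marks of their label. Every member had reads, and Pou5f1 alone gave 5346, at 2479 ± 209 RPM in siCtl libraries at 24 h (SD, n = 3), above 99.3% of the 13272 genes kept. Utf1 followed with 913 reads, then Tdgf1 with 496, Dnmt3b with 445, L1td1 with 304, Lin28a with 257, Sox2 with 200 and Nanog with 114. Sall4 gave 35 reads and Dppa5a 8, which is too few for a limma fit of either at a single time point. Dppa5a entered no limma fit, and only its abundance entered the exact permutation tests given below. The reads of Dnmt3b were spread over 9 annotated isoforms and those of Nanog over 3, so both were counted per gene. In bulk RNA, fewer cells of a type and less RNA per cell cannot be told apart.

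Of 51 other pluripotency genes, 46 had at least 1 read and 30 had at least 30, and some of the others had a single read. The most reads came from Trim28 (1082 reads), a corepressor that silences retroviruses, Phc1 (377), a Polycomb subunit, and Epcam (298), an epithelial adhesion molecule. Zfp42, Tcl1, Prdm14, Fut4 and Dppa5b were at 0 of 2042110 reads, which allows up to 1.47 RPM (counting error only). Reads of markers of other cell types were also found. The 12 neural genes summed to between 191 and 369 RPM in a library, most of it Stmn2 (421 reads of 537), a microtubule regulator of neurons, followed by Tubb3 and Dcx. Neurog2 and Neurod1, which drive neurogenesis, were at 0. The 12 mesendoderm genes summed to 49.4 to 127 RPM at 24 h and 257 to 523 RPM at 48 h, with T, Eomes and Gsc in front and Mesp1, Sox17, Sox7 and Afp at 0. The 5 trophectoderm genes summed to at most 24.9 RPM, and none had enough reads for a test. Over all libraries Tfap2c had 8 reads, Cdx2 7 and Hand1 1, with Elf5 and Krt7 at 0.

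**Figure D1:**
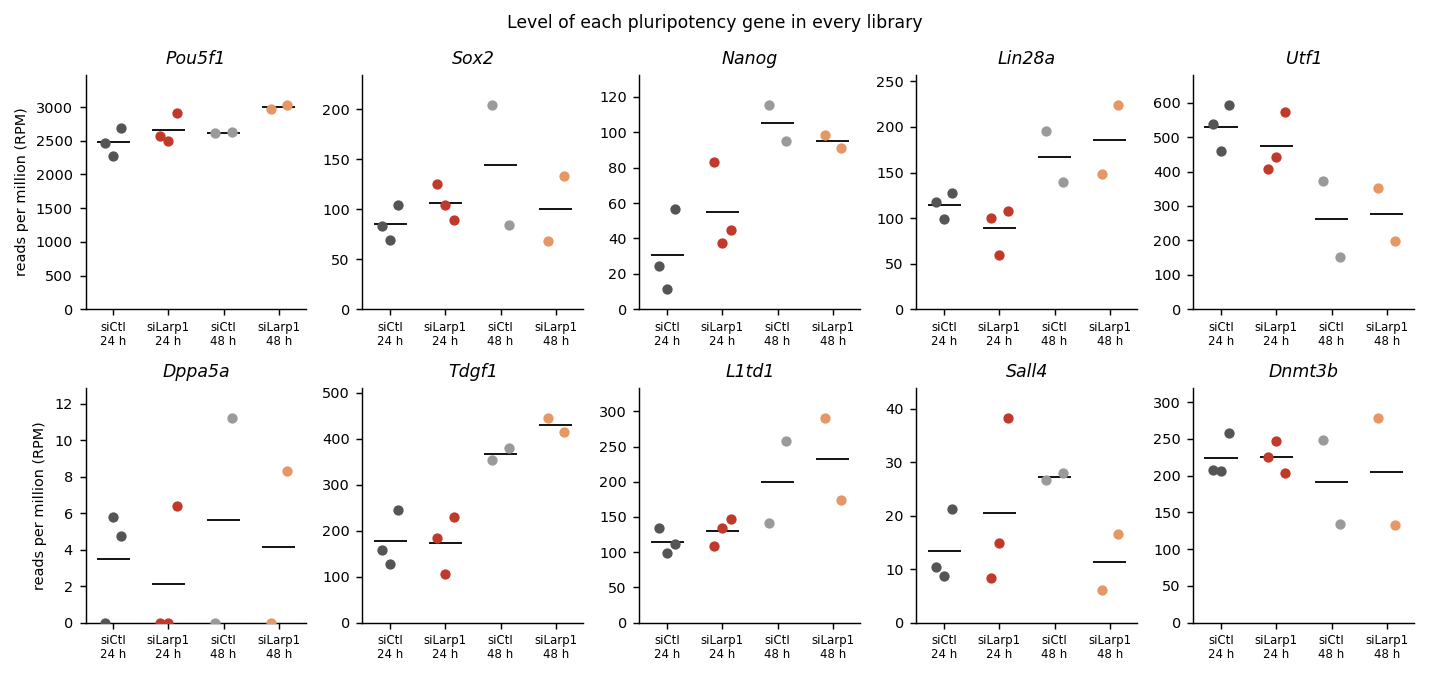
Level of each of the 10 genes (RPM, linear axis from 0, own scale per panel) in every library, by group; points are libraries and bars are group means. Pou5f1 lies between 2277 and 3028 RPM throughout, Tdgf1 and Nanog are higher and Utf1 lower at 48 h in both treatments.

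No member was called for abundance with siLarp1, in fits that at either single time did not call Larp1 itself. Pou5f1 stood at 2464, 2277 and 2695 RPM in the siCtl libraries 19, 21 and 22 and at 2570, 2490 and 2910 RPM in the siLarp1 libraries of those numbers. At 48 h it stood at 2608 and 2624 RPM in siCtl and at 2968 and 3028 RPM in siLarp1 libraries. The ranges overlapped at 24 h, and at 48 h both siLarp1 libraries were above both siCtl libraries. The log2 change was 0.10 (SE 0.07) at 24 h, 0.19 (SE 0.09) at 48 h and 0.13 (95% interval 0.01 to 0.25) over both, with adjusted p = 0.971, 0.878 and 0.808. Within the sequencing runs of the shared 48 h pool, the siLarp1 libraries held 2816 and 3009 RPM against 2393 and 2667 RPM in one run, without overlap, and 3382 and 3078 against 3214 and 2507 RPM in the other, with overlap.

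Taken over the list, 0 of 8 members tested were called at 24 h, where 0.0% of 4800 genes were (limma voom, Benjamini-Hochberg adjusted p under 0.05, 168 genes higher and 102 lower at an unadjusted p under 0.05). At 48 h it was 0 of 8, against 0.0% of 2704 genes (70 higher and 65 lower unadjusted). Over both times it was 0 of 9, against 0.119% of 5858 genes (0.0683% higher and 0.0512% lower). The groups were apart for 0 of 8 members at 24 h, where 10.9% of genes were apart, and for Pou5f1 and Tdgf1, 2 of 8, at 48 h, where 34.1% were. They were apart in 1 direction at both times for 0 of 9 members, where 2.36% of genes were. The median member log2 change was 0.05 at 24 h, 0.20 at 48 h and 0.07 over both, beside 0.01, 0.02 and 0.03 for all genes tested.

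The intervals set what could have been seen. For Pou5f1, whose depth was greatest, the 95% interval at 24 h ran from -0.05 to 0.25 on the log2 scale. For Utf1 it ran from -0.44 to 0.14 and for Dnmt3b from -0.37 to 0.38. For Sox2, with 135 reads at that time, it ran from -0.24 to 0.85, and for Lin28a from -0.91 to 0.20. Nanog had the largest estimate at 24 h, from 24.2, 11.6 and 56.7 RPM in siCtl to 83.4, 37.4 and 44.6 RPM in siLarp1 libraries. These ranges overlapped, they rest on 57 reads, and the log2 change was 0.94 (SE 0.44, adjusted p = 0.868). At 48 h its estimate was -0.10 (SE 0.35).

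**Figure D2:**
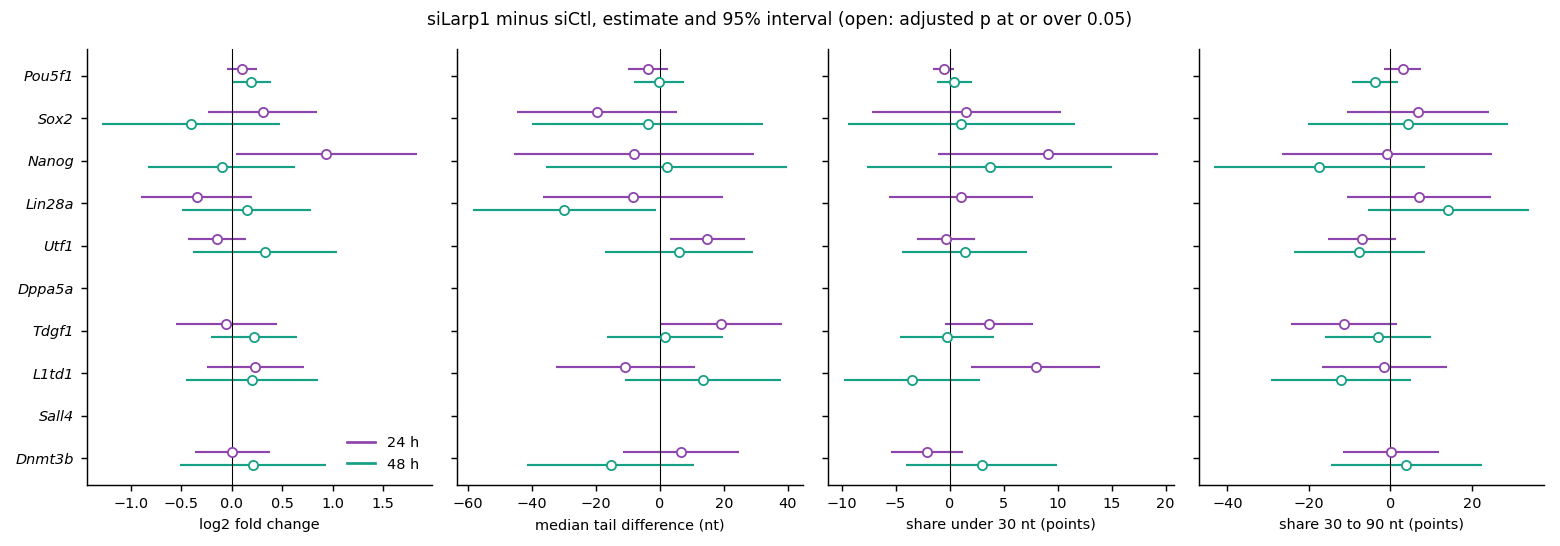
Change of each gene with siLarp1 (siLarp1 minus siCtl) at 24 h and 48 h with 95% intervals, for abundance (log2 fold change), median tail (nt) and the shares of tails under 30 nt and of 30 to 90 nt (percentage points). All symbols are open, as no adjusted p was under 0.05, and Pou5f1 has the narrowest interval in each panel. Sall4 and Dppa5a had too few reads, and Lin28a had no tail under 30 nt at 48 h.

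Median poly(A) tails of the members differed in their place among the genes of these cells. In pooled siCtl reads at 24 h the median tail of Pou5f1 was 119.75 nt, longer than in 82.2% of the 3883 genes with at least 30 reads. Its median within a library exceeded the median over genes in 10 of 10 libraries, but barely in siLarp1 library 25 (110.07 against 110.015 nt). Lin28a, at 123 nt, was longer than 86.2% of genes. Sox2 had a median of 112 nt, Dnmt3b of 108 nt, Nanog of 106 nt and L1td1 of 102 nt. Tdgf1, at 98.8 nt, and Utf1, at 94.96 nt, were in the lower part, longer than 29.6% and 20.0% of genes. The members thus spanned much of the range over genes, and pooled reads give no error for this order.

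Pou5f1 tails formed a single broad distribution in siCtl cells at 24 h, with 1.55% of 2639 reads under 30 nt, 24.3% of 30 to 90 nt, 48.4% above 90 and up to 150 nt and 25.8% above 150 nt. Utf1 held more short molecules, 7.43% of 565 reads under 30 nt (Wilson 95% interval 5.55 to 9.90%), while Tdgf1 held 1 in 194, or 0.515%, and Nanog 0 of 35, which allows up to 8.57%. Among 374 genes with at least 500 siCtl reads, the tail distributions nearest to that of Pou5f1, by the largest gap between cumulative distributions, were those of Set (0.025), Stmn1 (0.028), Prdx1 (0.029), Pfn1 (0.033) and Pgk1 (0.033). The median gap over these genes was 0.150, and that of Utf1 was 0.206. Libraries were pooled for this ranking, which is a description.

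**Figure D3:**
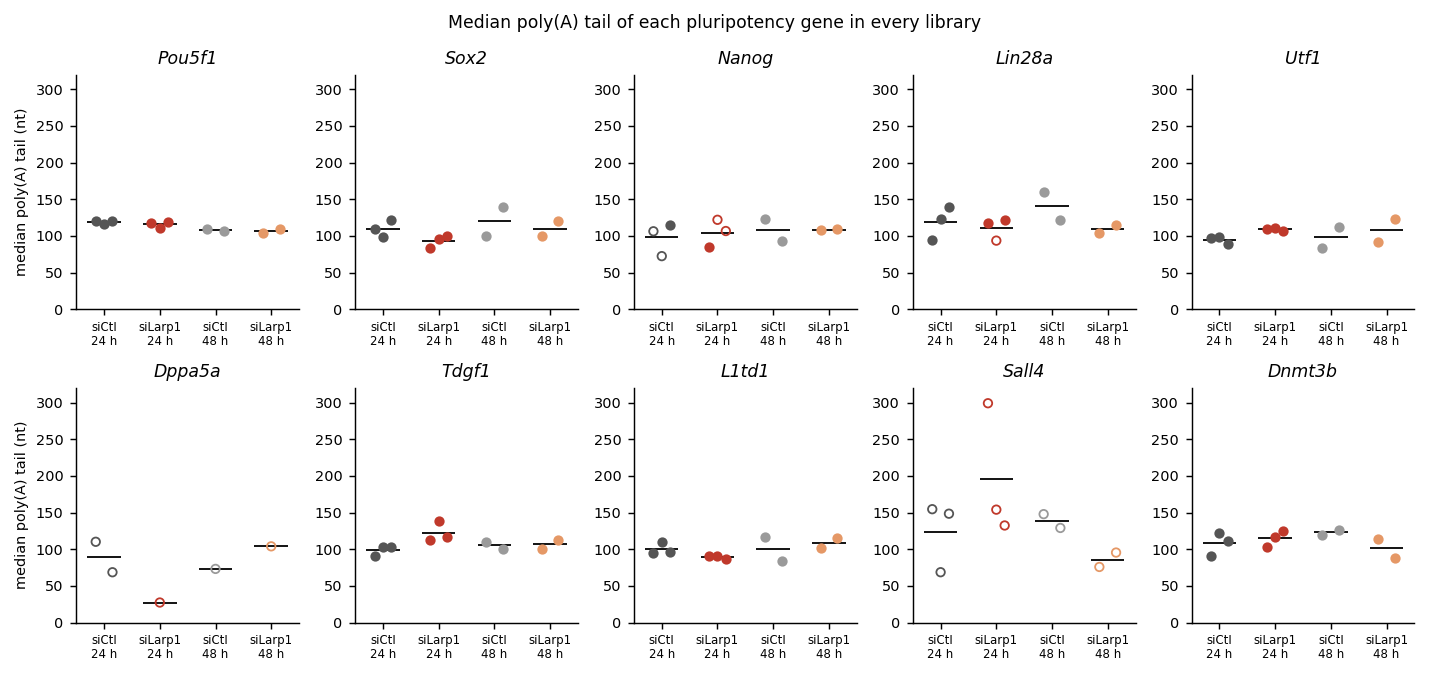
Median poly(A) tail of each of the 10 genes (nt, from 0) in every library, by group; open symbols mark libraries with fewer than 10 reads of that gene and bars are means over libraries. Pou5f1, with 294 to 1141 reads in a library, stays between 105 and 121 nt, while the genes with few reads scatter widely.

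With siLarp1 the median tail of Pou5f1 was not called. It was 120.6, 116.8 and 120.9 nt in the siCtl libraries at 24 h and 117.5, 110.5 and 118.6 nt in the siLarp1 libraries. At 48 h it was 108.9 and 106.3 nt in siCtl and 104.5 and 110.1 nt in siLarp1 libraries. The groups overlapped at both times, and the difference was -3.74 nt (95% interval -10.0 to 2.56) at 24 h and -0.39 nt (-8.22 to 7.43) at 48 h, with adjusted p = 0.938 and 0.999 (limma). No other member was called either: 0 of 8 at 24 h, 0 of 8 at 48 h and 0 of 9 over both, where 0.0% of 4677, 2704 and 5125 genes were called (174 higher and 89 lower unadjusted at 24 h, 113 and 50 at 48 h, 192 and 91 over both). The median difference over the members was -5.91 nt at 24 h and 0.55 nt at 48 h, beside 1.91 and 2.85 nt for all genes tested.

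Larger differences in tail were seen in members with fewer reads. Utf1 medians were 97.5, 98.0 and 89.3 nt in siCtl and 110.0, 111.1 and 106.9 nt in siLarp1 libraries at 24 h, all siLarp1 values above all siCtl values. At 48 h they were 83.9 and 112.7 nt against 91.8 and 123.0 nt, which overlapped. The difference was 14.9 nt (SE 5.82, adjusted p = 0.795) at 24 h, 5.91 nt (SE 11.6) at 48 h and 13.1 nt (SE 5.39, adjusted p = 0.779) over both. Tdgf1 medians were 90.6, 103.2 and 103.1 nt in siCtl and 111.9, 138.8 and 116.4 nt in siLarp1 libraries at 24 h, also apart, with a difference of 19.2 nt (SE 9.26, adjusted p = 0.853), and at 48 h it was 1.49 nt (SE 9.11). L1td1 went the other way at 24 h, where the 3 siLarp1 medians of 87.0 to 90.6 nt lay below all 3 siCtl medians, and at 48 h its difference was 13.5 nt (SE 12.3). Sox2 differed by -19.5 nt (SE 12.3, adjusted p = 0.887) at 24 h, with overlap, and by -3.80 nt (SE 18.1) at 48 h. Lin28a had its largest difference at 48 h, with 159.5 and 122.0 nt in siCtl and 104.2 and 114.7 nt in siLarp1 libraries, or -29.8 nt (SE 14.3, adjusted p = 0.809) on 98 reads. Groups were apart for 3 of 8 members at 24 h, where 11.7% of genes were, and for 2 of 8, Lin28a and Dnmt3b, at 48 h, where 33.8% were.

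The share of tails under 30 nt did not pass the test in any member. For Pou5f1 it was between 0.300% and 2.04% in the libraries at 24 h and between 1.36% and 2.49% at 48 h, with siCtl and siLarp1 overlapping at both times. The difference was -0.55 percentage points (95% interval -1.56 to 0.45) at 24 h and 0.42 (-1.20 to 2.05) at 48 h. The call was made for 0 of 8 members at 24 h (0.0265% of 3775 genes), 0 of 7 at 48 h (1.54% of 2278 genes) and 0 of 9 over both (0.272% of 4405 genes). The same fit called 12 of 87 ribosomal protein genes over both times, all 12 higher, with a median of 1.55 points over these 87 genes, beside 0.57 points over the 9 members and 0.23 over all genes. At 24 h the medians were 1.35 points over 86 ribosomal protein genes, 1.30 over 8 members and -0.24 over all genes. At 48 h they were 1.84 over 85 ribosomal protein genes, 1.07 over 7 members and 0.71 over all genes. The difference between these lists was not tested.

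L1td1 had the smallest unadjusted p among the members in this class. Its short share was 7.69%, 5.88% and 2.13% in siCtl and 7.69%, 16.7% and 13.0% in siLarp1 libraries at 24 h, which touched at the lowest value, and 6.25% and 6.52% against 4.26% and 0% at 48 h. The difference was 7.96 points (SE 2.70, adjusted p = 0.725) at 24 h on 13 short reads of 174 and -3.51 points (SE 3.17) at 48 h, and the change between the times was -11.5 points (SE 3.76, adjusted p = 0.763). Dnmt3b had 0 of 92 short reads in siLarp1 libraries at 24 h, which allows up to 3.26%, and 5 of 240 in siCtl. Tdgf1 had 3 of 72 and 1 of 194, and these were the 2 of 8 members whose groups were apart at 24 h, where 7.28% of genes were. At 48 h it was 1 of 7, L1td1, where 24.5% were.

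The share of tails of 30 to 90 nt, which spans the class of about 60 nt, behaved likewise. No member was called (0 of 8, 0 of 8 and 0 of 9), where 0.0% of genes were at 24 h and at 48 h (106 higher and 162 lower of 4677 unadjusted at 24 h, 38 and 146 of 2704 at 48 h) and 0.0585% over both. Pou5f1 had 23.1%, 23.6% and 25.5% in siCtl and 27.3%, 27.9% and 26.9% in siLarp1 libraries at 24 h, without overlap and higher in siLarp1. At 48 h it had 34.4% and 38.8% in siCtl and 33.7% and 32.6% in siLarp1 libraries, again without overlap but lower in siLarp1. The Wilson 95% intervals of single libraries were wider than these gaps, for example 22.6 to 32.5% in siLarp1 library 19 and 34.5 to 43.3% in siCtl library 25. The differences were 3.03 points (SE 2.32, adjusted p = 0.942) and -3.88 points (SE 2.88, adjusted p = 0.832), and the difference between them was -6.91 points (SE 3.80, adjusted p = 0.961). Groups were apart for 2 of 8 members at 24 h (11.5% of genes) and 4 of 8 at 48 h (34.7%).

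**Figure D4:**
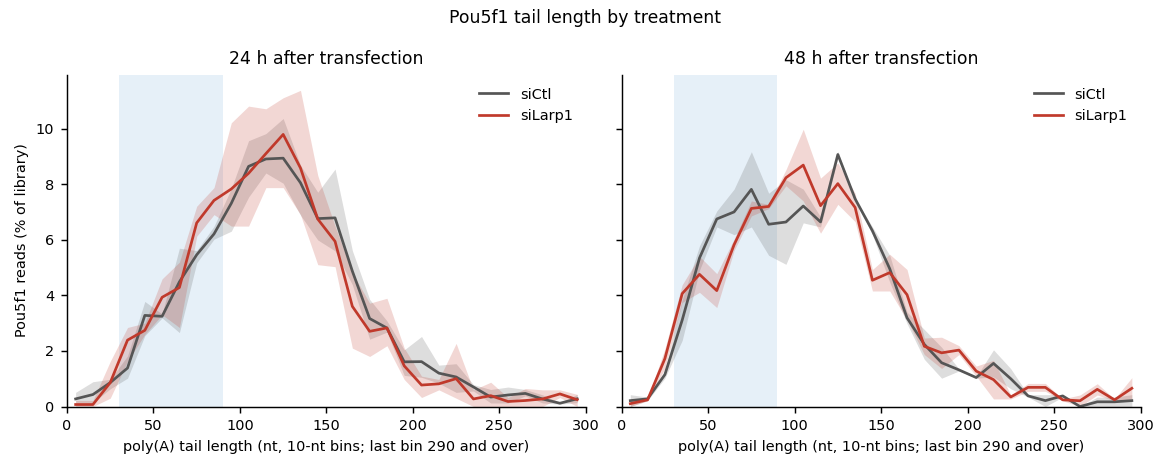
Distribution of Pou5f1 tail lengths (10-nt bins, percent of the Pou5f1 reads of a library) at 24 h and 48 h; lines are group means and bands run from the lowest to the highest library, with the 30 to 90 nt class shaded. The siLarp1 libraries hold more reads than the siCtl libraries in the shaded class at 24 h (26.9 to 27.9%) and fewer at 48 h (32.6% and 33.7%), and the siCtl curves of 48 h hold more reads in the shaded class (34.4% and 38.8% in siCtl libraries) than those of 24 h (23.1 to 25.5%).

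An exact permutation test within each time cannot go below p = 0.1 with 3 against 3 libraries or 0.333 with 2 against 2, so single values were also permuted within both times together, where the smallest p is 0.0167. Of 37 such two-sided tests over members and measures, 1 gave p under 0.05, the share of 30 to 90 nt in Tdgf1 (exact p = 0.0333, unadjusted), which was lower with siLarp1 by 13.6 points at 24 h and 2.84 points at 48 h on the group means. In the fit across genes its adjusted p was 0.862. Pou5f1 abundance had an exact p = 0.0667. The siLarp1 effect did not differ between the times by the interaction term in any member, in any of the 4 measures, with the smallest adjusted p = 0.763.

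The calls among the members came from the comparison of times. Between 24 h and 48 h the siCtl libraries held less Utf1 and more Tdgf1 and Nanog, and the siLarp1 libraries, which are other libraries, gave estimates of the same sign. Time cannot be told apart here from the second transfection or from the pools and runs, since no run held both times. Abundance was called for 3 of 8 members in siCtl, 2 higher and 1 lower, where 0.925% of 4650 genes were called higher and 0.215% lower (1.14% in all). In siLarp1 it was 1 of 8, higher, where 0.495% of 3033 genes were higher and 0.626% lower (1.12% in all). Groups were apart in 5 of 8 and 6 of 8 members, where 28.5% and 25.3% of genes were. The median log2 change was 0.50 and 0.49 over the members, beside 0.06 and 0.08 over all genes tested.

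Tdgf1, the co-receptor for NODAL, was at 159, 128 and 246 RPM in the siCtl libraries at 24 h and at 355 and 381 RPM at 48 h. In siLarp1 libraries it was at 184, 105 and 229 RPM and then at 444 and 415 RPM. All 48 h libraries were above all 24 h libraries. The log2 change was 1.08 (SE 0.21, adjusted p = 0.00162) in siCtl, 2.11-fold, and 1.35 (SE 0.24, adjusted p = 0.000996) in siLarp1, 2.56-fold. The siCtl call held in 14 of 14 alternatives, whereas the siLarp1 call was lost without either 48 h library, at adjusted p = 0.11 without library 24 and 0.0792 without library 25.

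Utf1, the chromatin-bound factor, was at 538, 459 and 593 RPM in siCtl at 24 h and at 373 and 151 RPM at 48 h. In siLarp1 it was at 409, 441 and 573 RPM and then at 352 and 199 RPM. It was lower at 48 h without overlap in both treatments, but the 48 h libraries lay far apart from each other. The log2 change was -1.26 (SE 0.22, adjusted p = 0.000315) in siCtl and -0.79 (SE 0.23, adjusted p = 0.0880) in siLarp1. The siCtl call rested on library 25 at 48 h: without it the log2 change was -0.49 and the adjusted p 0.592. In siLarp1 Utf1 was called without library 21 of 24 h (-0.83, adjusted p = 0.0431), with at least 100 reads per gene (-0.78, 0.0315) and with median-of-ratios scaling (-0.85, 0.0478).

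Nanog, of the core network, was at 24.2, 11.6 and 56.7 RPM in siCtl at 24 h and at 115 and 95.1 RPM at 48 h, and in siLarp1 at 83.4, 37.4 and 44.6 RPM and then at 98.7 and 91.3 RPM. Every 48 h value exceeded every 24 h value of its treatment, by little in siLarp1. The log2 change was 1.89 (SE 0.40, adjusted p = 0.0043) in siCtl, on 65 reads, and 0.89 (SE 0.41, adjusted p = 0.413) in siLarp1. The siCtl call was lost on the scale log2(RPM + 1), at adjusted p = 0.0754, and when only the main transcript was counted, at 0.0898. L1td1 changed by 0.85 (SE 0.25, adjusted p = 0.0841) in siCtl and 0.81 (SE 0.28, adjusted p = 0.188) in siLarp1, and Lin28a by 0.49 (SE 0.26) and 0.99 (SE 0.32, adjusted p = 0.156). The estimate for L1td1 was called without siCtl library 24 at 48 h (1.19, adjusted p = 0.00436). Pou5f1 changed by 0.07 (SE 0.09) and 0.17 (SE 0.09), and Sox2 by 0.50 (SE 0.30) and -0.19 (SE 0.36). For no member was a difference of the time change in abundance between siCtl and siLarp1 called by the interaction term, where the smallest adjusted p over the members was 0.970. This term called 0.0% of 5858 genes.

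Among the other pluripotency, neural, mesendoderm and trophectoderm genes, 4 were called higher at 48 h in siCtl libraries and 1 of them, T, in siLarp1 libraries. Of all genes tested, 0.925% of 4650 were called higher and 0.215% lower in siCtl. In siLarp1 it was 0.495% and 0.626% of 3033. How the calls of these list genes depend on the processing is not given here. In siCtl libraries 2 of the 23 other pluripotency genes tested were called, both higher: Nodal, the ligand of the TGF-beta family that TDGF1 helps to sense, at 1.54 on the log2 scale (SE 0.33, adjusted p = 0.00407), and Etv5, an ETS factor downstream of FGF signalling, at 1.32 (SE 0.35, adjusted p = 0.0427). In siLarp1 libraries they changed by 1.05 (SE 0.36, adjusted p = 0.201) and 0.68 (SE 0.41, adjusted p = 0.590), with 0 of 16 called. The median log2 change over the 23 genes in siCtl was -0.01 and over the 16 in siLarp1 0.42, beside 0.06 and 0.08 over all genes tested. Of the mesendoderm genes, T (Brachyury), the primitive streak factor, was at 48.3, 20.3 and 80.3 RPM in siCtl at 24 h and at 142 and 313 RPM at 48 h, a log2 change of 2.32 (SE 0.33, adjusted p = 2.47e-06). In siLarp1 it was at 66.7, 52.3 and 76.4 RPM and then 216 and 390 RPM, a change of 2.05 (SE 0.34, adjusted p = 0.000428). Eomes, a T-box factor of the same tissue, changed by 1.85 (SE 0.47, adjusted p = 0.0355) in siCtl, on 38 reads. Both mesendoderm genes tested there were called, but a gene needed at least 30 reads over the siCtl libraries to enter. Eomes had 5, 4 and 10 reads in the 24 h libraries and 8 and 11 at 48 h, so its entry depended on its 48 h reads. The other listed mesendoderm genes fell short of this minimum, so both calls cannot speak for the list. The part of these markers in the changes of Tdgf1, Nanog and Utf1 was not tested. Neither of the 2 neural genes tested was called in either treatment (Stmn2 -0.38 with SE 0.25 in siCtl and -0.48 with SE 0.26 in siLarp1).

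**Figure D5:**
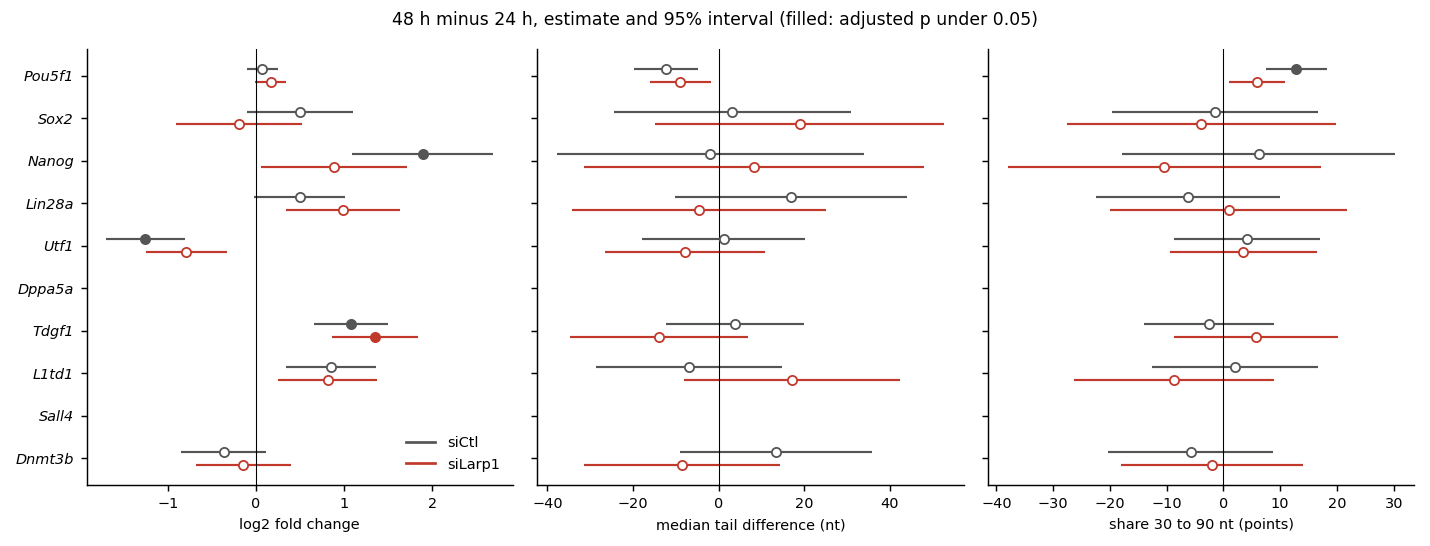
Change of each gene from 24 h to 48 h within siCtl and within siLarp1 libraries, with 95% intervals, for abundance (log2 fold change), median tail (nt) and the share of tails of 30 to 90 nt (percentage points). Filled symbols mark adjusted p under 0.05: Nanog, Utf1 and Tdgf1 abundance in siCtl, Tdgf1 in siLarp1, and the tail share of Pou5f1 in siCtl.

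The tails of Pou5f1 also differed between the times. Its share of tails of 30 to 90 nt rose from 23.1 to 25.5% in the 3 siCtl libraries at 24 h to 34.4% and 38.8% at 48 h, by 12.8 points (SE 2.74, adjusted p = 0.0137, limma). It was the single gene called in this measure, 1 of 8 members where 0.0218% of 4589 genes were, and the median over all genes was 2.80 points. In siLarp1 the share went from 26.9 to 27.9% to 32.6% and 33.7%, also without overlap, by 5.89 points (SE 2.51, adjusted p = 0.786), and the difference between these time changes missed the threshold (-6.91 points, SE 3.80, adjusted p = 0.961). Its median tail differed by -12.3 nt (SE 3.67, adjusted p = 0.734) in siCtl and by -8.95 nt (SE 3.66, adjusted p = 0.640) in siLarp1, where the median over genes was -4.39 and -3.66 nt. No median tail was called, 0 of 8 members and 0.0% of genes in either treatment (siCtl 79 genes higher and 221 lower unadjusted, siLarp1 50 and 142). The median tails were apart for Pou5f1 alone of 8 members in siCtl, where 27.4% of genes were, and for 3 of 8 in siLarp1, where 20.8% were.

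By sequencing run, the siCtl share of Pou5f1 lay between 20.99% and 26.8% in the 9 library and run combinations at 24 h and between 31.6% and 44.5% in the 4 at 48 h. These combinations split the reads of the same siCtl libraries that gave the call and are not further replicates. The call was lost when the class was narrowed to 40 to 80 nt (10.3 points, adjusted p = 0.0758) and without siCtl library 19 at 24 h (12.4 points, 0.217) or either library at 48 h (10.1 points, 0.905, without library 25; 14.5 points, 0.181, without library 24). The direction was the same in each. Read completeness moved with time as well: 29.5 to 31.0% of Pou5f1 reads reached the first 50 nt of the transcript in siCtl libraries at 24 h and 21.3 to 23.8% at 48 h, and in siLarp1 libraries 25.4 to 29.5% and 20.8 to 23.7%. Its part in the tail values was not tested. Tails under 30 nt of Pou5f1 differed by 0.15 points (SE 0.51) in siCtl and 1.13 points (SE 0.67) in siLarp1, with 0 of 7 and 0 of 8 members called, where 0.0268% of 3730 and 0.0403% of 2481 genes were.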

How the data were processed

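P19 libraries (3 siCtl and 3 siLarp1 at 24 h, 2 and 2 at 48 h) were sequenced as native RNA. The authors called bases with Guppy, demultiplexed with Deeplexicon, aligned with minimap2 2.20 to mm10 transcripts (GENCODE vM17) and estimated tails with Nanopolish. The deposited table holds 1 line per read and aligned sequence, with tail length in nt, barcode confidence as a fraction and mapping quality as a score, and the authors had not normalized it. Alignments to mRNA with PASS tails were kept (2042110, without mitochondrial transcripts and pseudogenes). Reads per gene were tested with limma 3.58.1 voom (R 4.3.3), scaled to kept reads. Median tails and tail shares were tested with limma, weighted by reads. Genes needed 30 reads and, for tails, 1 in each library, and p-values were adjusted over all genes. Low tallies limit precision. Wilson intervals and limits of 0 cover counting error only, and those of the fits rest on the spread between libraries. Members, lists and tests were chosen with earlier results of these data known, and the siLarp1 time comparison after seeing them. Named were all 10 members, Larp1, list genes called, at 0 or among the 3 with most reads, and the 5 nearest tail distributions. Scripts were tested on simulated data. Coordinates match GENCODE vM21.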

Additional observations from a re-analysis of the deposited data

How the results depend on the processing

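The number of members called stayed within 1.5 times of the reported one in 377 combinations of measure, comparison and alternative and moved in 9. In most of these combinations the reported number was 0 and stayed so. The margin is also wide enough that losing the siCtl abundance call of Nanog or of Utf1, described above, did not count as a move. All 9 concern time. In siLarp1 abundance, where 1 member was called, it was 2 with at least 100 reads per gene and 2 with median-of-ratios scaling, as Utf1 joined Tdgf1, and 0 to 2 when 1 library was left out. For the share of 30 to 90 nt in siCtl, where 1 was called, it was 0 with the class of 40 to 80 nt and 0 to 1 when 1 library was left out. The comparisons of siLarp1 with siCtl gave 0 members called under each alternative run. With the library number as a replicate block the number of members called was 0 in each of the 4 measures at 24 h, at 48 h and over both. Same-numbered libraries are not paired by the labels. Their deviations in log2 RPM from the group mean correlated at 0.093, 0.349 and 0.361 at 24 h, each best with its own number. At 48 h the correlation was 0.153. With 2 libraries in a group the deviations mirror each other, so only the sign of that value could favour a match. Deviations from a group mean are not independent at 24 h either. No paired analysis was possible for time, because libraries of 24 h and 48 h share no numbers. Over all genes, calls in abundance ranged from 0 to 20 at 24 h (0 reported), 0 to 17 at 48 h (0), 2 to 21 over both (7), 15 to 77 for time in siCtl (53) and 2 to 77 in siLarp1 (34). Calls in the share under 30 nt ranged from 0 to 5 at 24 h (1), 4 to 48 at 48 h (35), 0 to 21 over both (12), 0 to 29 for time in siCtl (1) and 0 to 32 in siLarp1 (1). Calls in the share of 30 to 90 nt ranged from 0 to 6 for time in siCtl (1) and in median tail from 0 to 6 over both (0).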
